A study of Mus musculus with 15 samples.

Results

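The 8 genes described here, Ppara, Cpt1a, Cpt2, Acadm, Acadl, Hadha, Pdk4 and Angptl4, act in the burning of fatty acids and in its control, and were taken by symbol from the 25329 genes of an RNA sequencing table of mouse ileum. All 8 were in the table and all 8 passed the filter on low values, with 11332 genes tested in all. RNA of ileum tissue was sequenced in 5 libraries from mice with TAK1 IEC-KO and Ripk1 D138N/D138N (DHO), 5 from mice with TAK1 IEC-KO alone (HO) and 5 from Tak1f/f controls (WT), and the stated question was what RIPK1 kinase does when ileitis develops in TAK1 IEC-KO mice. TAK1 IEC-KO mice lose TAK1, the product of Map3k7, from intestinal epithelial cells, and the D138N allele makes a RIPK1 protein without kinase activity. All 3 groups were given 3 daily intraperitoneal injections of tamoxifen at 80 mg/kg, per the labels, and tissue was taken 3 days post induction. The Cre driver, age and sex are not given in the sources used here. Nothing says in so many words that each library came from a separate animal, so p-values measure the spread between these libraries.

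Long-chain fatty acids enter mitochondria through the carnitine shuttle, in which CPT1A on the outer membrane makes acylcarnitines and CPT2 on the inner membrane turns them back into acyl-CoA. Each turn of beta-oxidation then starts with an acyl-CoA dehydrogenase chosen by chain length, such as those encoded by Acadl and Acadm, and the trifunctional protein that Hadha contributes to carries out the later steps for long chains. The nuclear receptor PPAR alpha, encoded by Ppara, binds with RXR to DNA and raises genes of this pathway in fasting and after dietary fat. Pdk4, a kinase that shuts down pyruvate dehydrogenase, and Angptl4, a secreted inhibitor of lipoprotein lipase, are widely used as its target genes, although other receptors also act on them.

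Promoter windows are shown for a pair of genes that were lower in HO and carried a single AGGTCA (Acadm, Cpt1a), and for the pair that was higher in HO (Acadl, Pdk4). PPAR with RXR binds a direct repeat of these letters with 1 base between the copies, and AGGTCA alone is 1 copy of it. The sequences are those of RefSeq on GRCm38.p6 and run from 250 bases before the start site to 50 after it, 5′ to 3′ on the strand of the gene. Capitals mark AGGTCA or its reverse complement TGACCT. Where a gene has several start sites the table's own choice was used: the window's start site lies 975 bases inside the outer end of the gene given below for Cpt1a, and 866 bases inside it for Ppara. The windows lie at chr3:153944594-153944893 for Acadm (minus strand), chr19:3323051-3323350 for Cpt1a (plus strand), chr1:66863260-66863559 for Acadl (minus strand) and chr6:5496229-5496528 for Pdk4 (minus strand).
Acadm: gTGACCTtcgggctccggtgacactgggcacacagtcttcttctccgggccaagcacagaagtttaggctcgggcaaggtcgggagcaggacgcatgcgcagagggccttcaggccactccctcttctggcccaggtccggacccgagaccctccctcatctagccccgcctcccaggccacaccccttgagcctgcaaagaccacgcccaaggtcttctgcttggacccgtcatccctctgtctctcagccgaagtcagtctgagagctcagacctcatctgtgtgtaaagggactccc
Cpt1a: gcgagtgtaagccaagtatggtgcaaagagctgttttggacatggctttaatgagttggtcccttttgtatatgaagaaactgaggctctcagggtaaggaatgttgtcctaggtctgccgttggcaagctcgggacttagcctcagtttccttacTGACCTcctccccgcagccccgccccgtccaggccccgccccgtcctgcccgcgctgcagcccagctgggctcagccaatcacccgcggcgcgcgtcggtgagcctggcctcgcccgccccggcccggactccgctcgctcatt
Acadl: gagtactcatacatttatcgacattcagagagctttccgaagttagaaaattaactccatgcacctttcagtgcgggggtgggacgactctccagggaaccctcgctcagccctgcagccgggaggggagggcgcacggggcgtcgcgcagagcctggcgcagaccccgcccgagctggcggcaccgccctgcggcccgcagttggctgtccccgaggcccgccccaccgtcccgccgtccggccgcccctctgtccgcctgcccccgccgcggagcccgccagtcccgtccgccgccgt
Pdk4: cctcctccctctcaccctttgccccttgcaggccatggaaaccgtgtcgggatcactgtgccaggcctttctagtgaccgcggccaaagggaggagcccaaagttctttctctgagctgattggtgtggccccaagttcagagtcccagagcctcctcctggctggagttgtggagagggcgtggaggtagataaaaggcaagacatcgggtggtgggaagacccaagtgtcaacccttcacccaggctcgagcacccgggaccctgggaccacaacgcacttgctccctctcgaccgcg
Of the 8 genes, 7 matched a window by symbol (not Angptl4). Within these 7 windows AGGTCA was found on either strand in Acadm, where its first base was at position -249 from the start site, and in Cpt1a, where it was at -94. The same letters occur in 16.3% of all 32851 windows. The direct repeat of these letters with 1 base between the copies (DR1), searched on both strands, was in none of the 7 windows, exactly or with up to 2 mismatches, and is in 0.0396% and 3.86% of all windows. These matches describe letters in a short window only, and an exact match to the repeat also counts as a match to the single copy.

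The deposited values are FPKM, which divide reads by the length of the gene and the depth of the library. Levels of different genes compare only as far as the lengths used suit the transcripts present, and those lengths were not checked here. Whole reads recovered from the steps in these values summed to between 38724618 and 40589889 per library. Map3k7 (chromosome 4, 31963492 to 32023470) was at 9.23 ± 0.71 FPKM in DHO, 8.66 ± 1.04 in HO and 10.4 ± 0.803 in WT (SD, n = 5 each). Its change in HO against WT was -0.24 (SE 0.09, adjusted p = 0.0419), about that of the median gene, and a value over the whole transcript of a mixed tissue does not measure the deleted exons in epithelium. HO 1, DHO 3 and DHO 4 held Gata4, a transcription factor of the proximal small intestine, at up to 27.3 FPKM. The ileal gene Fabp6 was at 0.0491 FPKM in HO 1. Markers of the distal small intestine and colon, Fabp6 included, summed to 8.5 FPKM in HO 1, but to 8960 in DHO 3 and 9880 in DHO 4. HO 2, HO 4 and DHO 1 held the B cell gene Ms4a1 at up to 15.5 FPKM. Both sets of libraries were left out in turn below. The median gene changed by -0.249 on the log2 scale in HO against WT and 0.246 in DHO against HO, and it was 0.01 and -0.011 after median-of-ratios scaling.

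The 8 genes did not move in one direction in HO. Ppara, both carnitine palmitoyltransferase genes, Acadm and Hadha were lower in HO than in WT, whereas Acadl and Pdk4 were higher. Changes are differences of mean log2(FPKM + 1) with a standard error (SE), tested with limma-trend and Benjamini-Hochberg adjustment over all genes and called at an adjusted p under 0.05. By this test 7 of the 8 genes were called in HO against WT, 2 higher and 5 lower, where 55.4% of all genes tested were called, 12.4% higher and 42.9% lower. The 5 HO libraries lay wholly outside the range of the 5 WT libraries for 6 of the 8, against 36.0% of all genes: Acadl and Pdk4 were above it (6.19% of all genes) and Ppara, Cpt1a, Cpt2 and Acadm below it (29.8%). In DHO against HO all 8 were called, 5 higher and 3 lower, where 56.1% of all genes were called, 42.8% higher and 13.4% lower. The DHO and HO libraries did not overlap for 7 of the 8, Angptl4 being the exception, against 33.3% of all genes: 5 were higher in DHO (27.9% of all genes) and 2 were lower (5.44%). These comparisons share the HO libraries. The direction of most calls is that of the general shift. Acadl and Pdk4 went against it in both comparisons, and Angptl4 did in DHO against HO. In whole tissue, fewer cells of a type and less RNA per cell cannot be told apart.

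**Figure D1:**
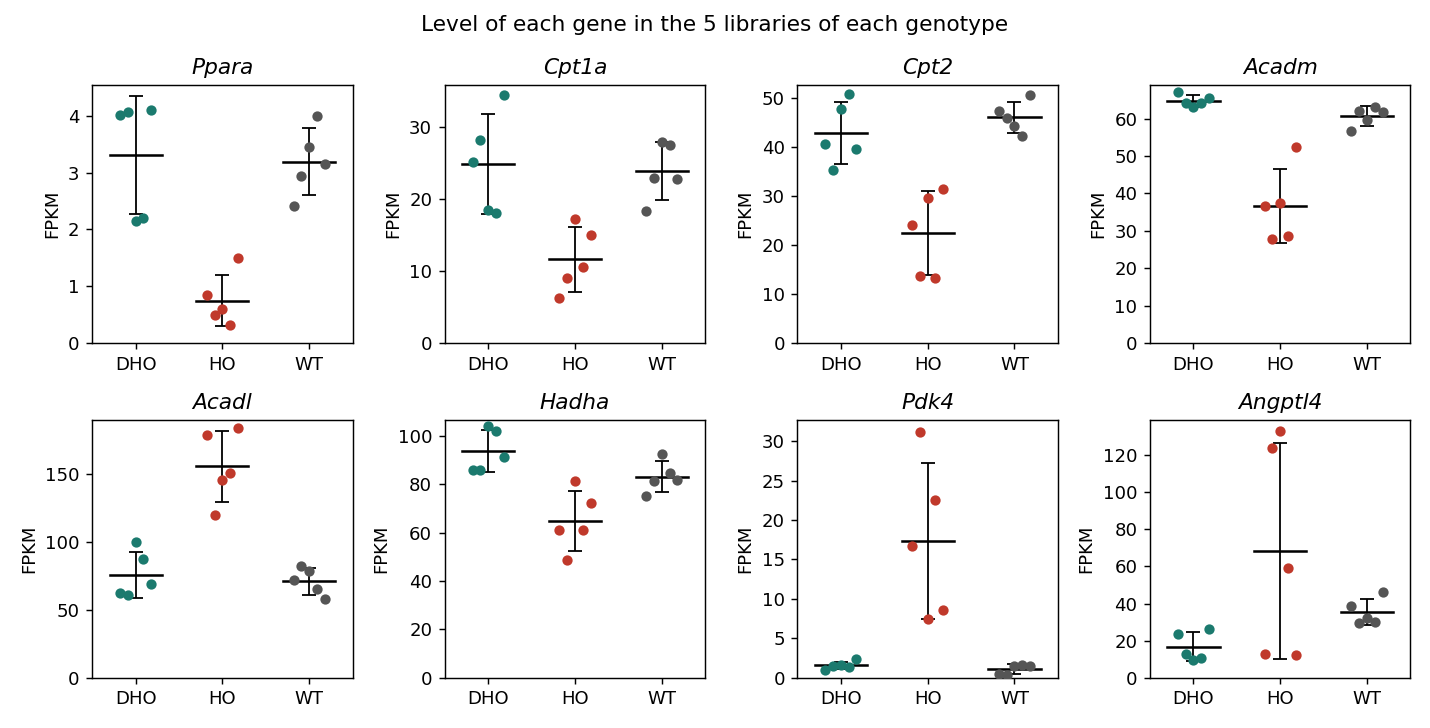
FPKM (vertical axes, linear from 0) of each of the 8 genes in every library, with DHO, HO and WT from left to right; points are libraries, horizontal lines group means and bars SD (n = 5). HO libraries sit below the DHO and WT libraries for Ppara, Cpt1a, Cpt2 and Acadm and above them for Acadl and Pdk4, while Angptl4 spreads from 12.2 to 133 FPKM within HO.

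The receptor gene Ppara (chromosome 15, 85734910 to 85806851) stood at 4.02, 4.06, 2.14, 2.2 and 4.1 FPKM in DHO libraries 1 to 5, at 0.838, 0.493, 0.59, 0.32 and 1.49 FPKM in HO libraries and at 2.41, 2.94, 3.45, 3.99 and 3.15 FPKM in WT libraries. Every HO library was below every library of the other groups, and DHO 3 and DHO 4 were the lowest of DHO. The recovered reads behind these values numbered 132 to 615 per HO library. Ppara fell by 1.29 on the log2 scale in HO against WT (SE 0.19, adjusted p = 7.09e-05) and rose by 1.3 in DHO against HO (SE 0.19, adjusted p = 6.22e-05). Because 4 of 5 HO libraries lie below the 1 FPKM added before the log, these sizes are understated: with 0.1 FPKM added they were -2.09 and 2.1.

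Genes of receptors and cofactors that work with or beside PPAR alpha moved less. Of 11 such genes tested, 6 were lower in HO than in WT and none was higher, against 42.9% and 12.4% of all genes. The median change was -0.34 against -0.25 for all genes. In DHO against HO, 7 were higher and none lower, against 42.8% and 13.4% of all genes, with a median of 0.46 against 0.25. Rxrb, one of the genes for the RXR partner, fell by 0.62 on the log2 scale in HO (SE 0.11, adjusted p = 0.000386) and rose by 0.7 in DHO against HO (adjusted p = 0.000146). Ppargc1b, a coactivator of oxidative genes, was at 0.992 ± 0.0905 FPKM in DHO, 0.466 ± 0.27 in HO and 1.23 ± 0.163 in WT, and was called lower in HO (-0.62, adjusted p = 0.000447; -1.37 with 0.1 FPKM added) and higher in DHO against HO (adjusted p = 0.00358). The corepressor gene Ncor1 (-0.5, adjusted p = 0.000883) and the receptor genes Rxra (-0.51, adjusted p = 0.0168) and Ppard (-0.34, adjusted p = 0.0292) were called lower in HO too, but none of these 3 was after median-of-ratios scaling, where they were at -0.2, -0.21 and -0.03, and without HO 2, HO 4 and DHO 1 Rxra (-0.41, adjusted p = 0.105) and Ppard (-0.25, adjusted p = 0.122) were not called. Leaving out any 1 of HO 2, HO 3, WT 2 or WT 4 also ended the call of Ppard. Pparg was at -0.33 (adjusted p = 0.265) and Hnf4a, a master regulator of enterocytes, at -0.06 (adjusted p = 0.484) in HO against WT. After median-of-ratios scaling, by which 24.7% of all genes were higher and 23.3% lower in HO against WT and 24.7% and 25.9% in DHO against HO, the list counted 1 higher and 2 lower in HO against WT and 2 higher and 1 lower in DHO against HO.

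Both genes of the carnitine shuttle were lower in HO. Cpt1a (chromosome 19, 3322326 to 3385735), whose product is the regulated entry step, was at 25.1, 28.2, 18.5, 18.0 and 34.4 FPKM in DHO libraries 1 to 5, at 6.18, 9.03, 17.2, 10.5 and 15.0 FPKM in HO libraries and at 18.3, 22.9, 27.9, 27.5 and 22.7 FPKM in WT libraries. HO libraries were all below the rest, with HO 3 at 17.2 FPKM just under DHO 4. The change was -1.04 in HO against WT (SE 0.23, adjusted p = 0.00176) and 1.08 in DHO against HO (SE 0.23, adjusted p = 0.00134).

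Cpt2 (chromosome 4, 107903982 to 107923589) was at 40.6, 35.3, 47.7, 50.8 and 39.6 FPKM in DHO libraries 1 to 5, at 24.1, 13.7, 29.5, 13.3 and 31.5 FPKM in HO libraries and at 47.3, 45.9, 44.3, 42.3 and 50.6 FPKM in WT libraries. HO 2 and HO 4 were the lowest and HO 5 the highest of the HO group, which did not overlap either other group. It fell by 1.09 on the log2 scale in HO against WT (SE 0.21, adjusted p = 0.000532) and rose by 0.98 in DHO against HO (SE 0.21, adjusted p = 0.00109). Without HO 2, HO 4 and DHO 1 these changes were -0.69 (adjusted p = 0.00143) and 0.59 (adjusted p = 0.00464). The carrier gene between these enzymes, Slc25a20, was at 56.6 ± 7.92 FPKM in DHO, 51.1 ± 8.76 in HO and 53.8 ± 5.62 in WT and was not called in HO against WT (-0.09, adjusted p = 0.585). Cpt1b, the muscle form of the entry enzyme, averaged 0.0327 FPKM or less in each group and was not tested.

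Acadm and Acadl, the acyl-CoA dehydrogenase genes among the 8, moved in opposite directions. Acadm (chromosome 3, 153922353 to 153944643), for medium chains, was at 67.0, 64.1, 63.0, 64.1 and 65.5 FPKM in DHO libraries 1 to 5, at 36.7, 27.9, 37.4, 28.7 and 52.5 FPKM in HO libraries and at 56.7, 62.1, 59.6, 63.1 and 61.9 FPKM in WT libraries. DHO and WT libraries were tight and HO libraries were all lower. It fell by 0.75 on the log2 scale in HO (SE 0.13, adjusted p = 0.000307) and rose by 0.84 in DHO against HO (SE 0.13, adjusted p = 0.000113), and by median-of-ratios scaling these were -0.44 (adjusted p = 0.0133) and 0.53 (adjusted p = 0.00389).

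Acadl (chromosome 1, 66830839 to 66863309), for long chains, was higher in HO. It was at 62.6, 61.1, 100, 87.5 and 69.0 FPKM in DHO libraries 1 to 5, at 179, 120, 146, 151 and 184 FPKM in HO libraries and at 72.0, 82.7, 78.4, 65.3 and 57.9 FPKM in WT libraries. Every HO library was above every other library, and DHO 3 and DHO 4 were the highest of DHO. The mean in HO was 2.19-fold that in WT, a log2 change of 1.11 (SE 0.16, adjusted p = 5.02e-05), and DHO fell by 1.04 against HO (SE 0.16, adjusted p = 8.23e-05). With median-of-ratios scaling the changes were larger, at 1.43 and -1.35.

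A ratio of FPKM values within a library does not depend on how libraries are scaled, and a pair of ratios chosen after the values were seen is given as a description. Acadl over Acadm was 0.934 to 1.59 in DHO, 3.5 to 5.27 in HO and 0.935 to 1.33 in WT libraries. Every HO ratio was above the highest ratio of either other group, while DHO and WT overlapped.

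**Figure D2:**
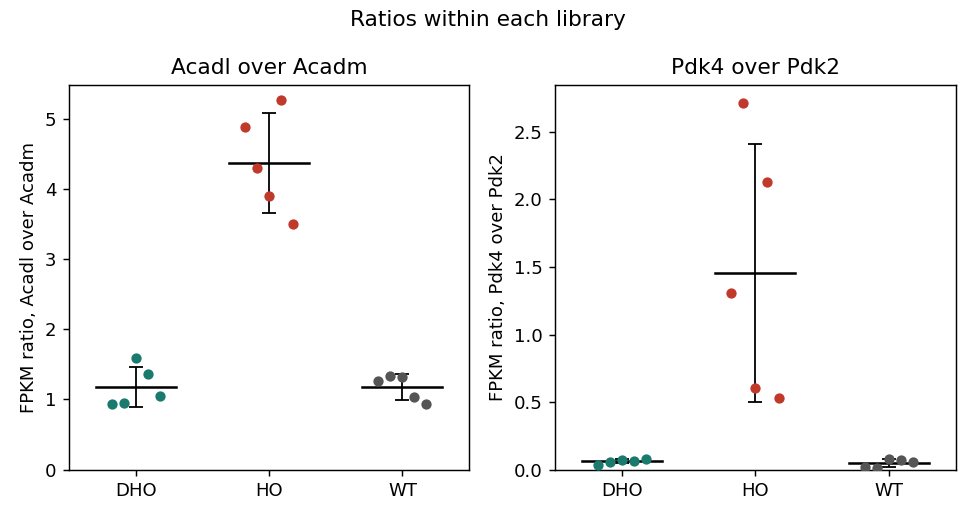
Ratio of FPKM values within each library (vertical axes, linear from 0) for Acadl over Acadm and for Pdk4 over Pdk2, with DHO, HO and WT from left to right; points are libraries, lines means and bars SD (n = 5). HO libraries span 3.5 to 5.27 and 0.53 to 2.71, and all other libraries lie below them in both panels.

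Hadha (chromosome 5, 30119423 to 30154980), the alpha subunit of the trifunctional protein, was at 85.8, 86.1, 104, 102 and 91.5 FPKM in DHO libraries 1 to 5, at 61.0, 48.7, 81.4, 61.2 and 72.2 FPKM in HO libraries and at 75.1, 81.2, 92.7, 84.8 and 81.8 FPKM in WT libraries. HO 3 lay within the WT range, whereas no HO library reached the lowest DHO library. It fell by 0.37 on the log2 scale in HO (SE 0.12, adjusted p = 0.0177), close to the median of all genes, and the call was lost with quantile normalization (-0.24, adjusted p = 0.0618), with median-of-ratios scaling (-0.05, adjusted p = 0.734) and without HO 2, HO 4 and DHO 1 (-0.22, adjusted p = 0.125). The rise of 0.54 in DHO against HO (SE 0.12, adjusted p = 0.00159) was lost with median-of-ratios scaling too (0.23, adjusted p = 0.125).

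**Figure D3:**
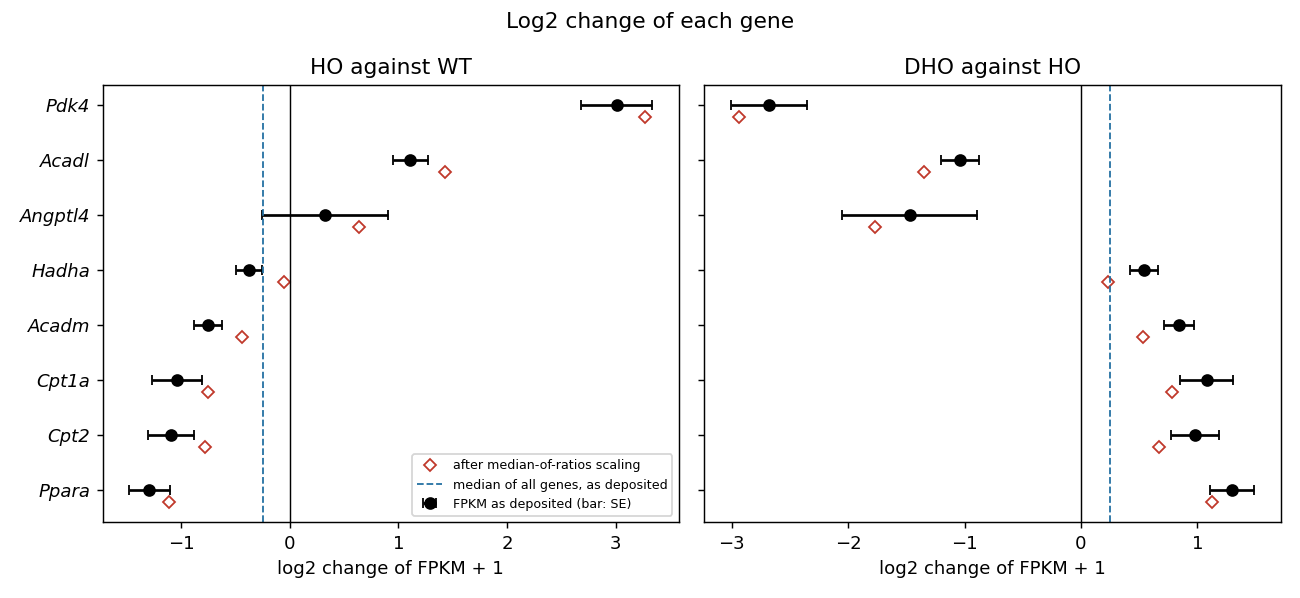
Log2 change of FPKM + 1 (horizontal axes) of the 8 genes in HO against WT and in DHO against HO; black points and bars are the change and SE from FPKM as deposited, open diamonds the change after median-of-ratios scaling, and the dashed line the median of all genes (-0.249 and 0.246). Pdk4 lies farthest from 0 in both panels, and Hadha comes nearest to 0 after scaling.

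The other mitochondrial beta-oxidation genes were mostly lower in HO in FPKM as deposited. Of 19 listed and 18 tested, 14 were lower and none higher in HO against WT, where 42.9% of all genes were lower and 12.4% higher. The median change was -0.45 against -0.25 for all genes. In DHO against HO 15 were higher and 1 lower, where 42.8% of all genes were higher and 13.4% lower. The median there was 0.58 against 0.25. Acads, the short-chain dehydrogenase gene, was at 55.6 ± 9.59 FPKM in DHO, 23.1 ± 12.5 in HO and 59.6 ± 3.64 in WT, and changed by -1.46 in HO against WT (SE 0.24, adjusted p = 0.000178). The isomerase gene Eci1 was at 38.3 ± 3.98 FPKM in DHO, 12.9 ± 4.08 in HO and 32.8 ± 6.42 in WT, with changes of -1.32 in HO against WT (adjusted p = 6.43e-05) and 1.55 in DHO against HO (adjusted p = 1.72e-05). Echs1, the enoyl-CoA hydratase gene (-1.03, adjusted p = 6.15e-05), and the dehydrogenase family gene Acad9 (-1.0, adjusted p = 4.88e-05) were lower in HO as well. Etfa and Etfdh, which pass electrons from the dehydrogenases to the respiratory chain, rose by 0.51 (adjusted p = 0.00017) and 0.64 (adjusted p = 0.000194) in DHO against HO, and fell in HO against WT (-0.48 and -0.45). After median-of-ratios scaling neither fall was called, and of the rises that of Etfdh was (0.33, adjusted p = 0.0373) and that of Etfa was not (0.22, adjusted p = 0.0796). Acadsb, for short branched chains, was the 1 gene called lower in DHO against HO (-0.56, adjusted p = 0.033), a call lost without any 1 of DHO 1, DHO 3, DHO 4, HO 2, HO 3 or HO 4 (adjusted p up to 0.088) and without HO 2, HO 4 and DHO 1 (-0.23, adjusted p = 0.435), and was at 0.3 in HO against WT (adjusted p = 0.236). With median-of-ratios scaling 1 gene of the list was higher and 5 were lower in HO against WT, against 24.7% and 23.3% of all genes. Most of the smaller falls therefore depend on the scaling.

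**Figure D4:**
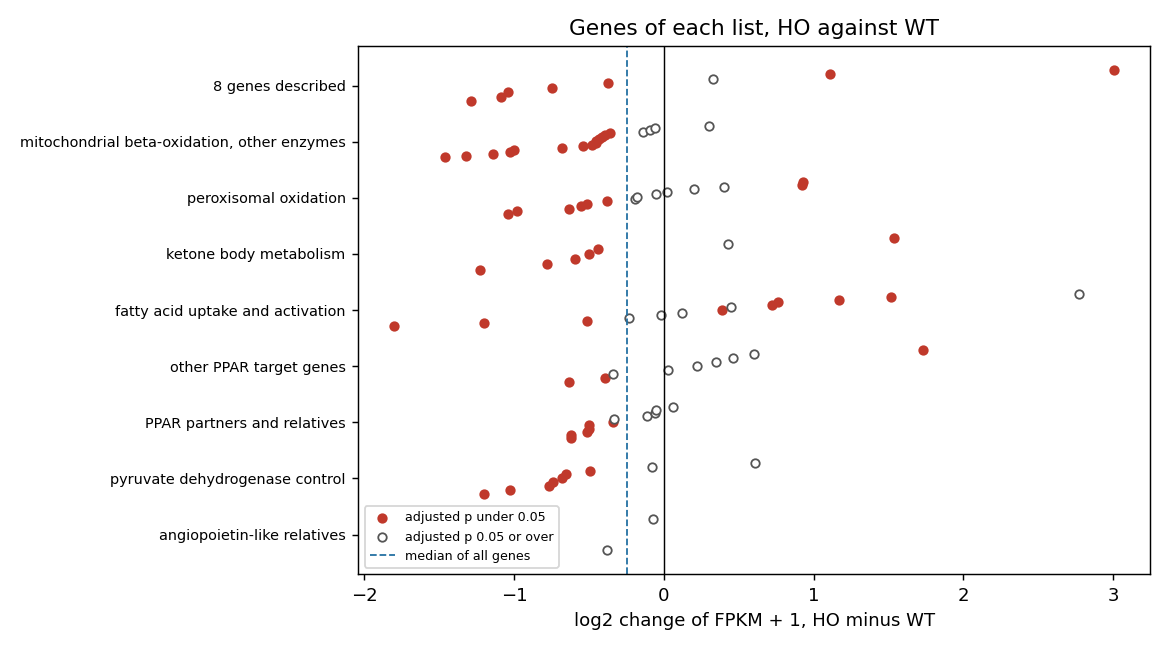
Log2 change of FPKM + 1 in HO minus WT (horizontal axis) for each tested gene of the 8 described and of 8 related lists (rows); filled points passed an adjusted p under 0.05, open points did not, and the dashed line is the median of all genes (-0.249). The beta-oxidation and pyruvate dehydrogenase rows lie mostly to the left of the line, and the uptake and activation row reaches both sides.

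Peroxisomes shorten very long chains by a separate set of enzymes, and of 16 such genes listed 14 were tested. In HO against WT 2 were higher and 6 lower, shares close to the 12.4% and 42.9% of all genes. The median change was -0.18 against -0.25 for all genes. In DHO against HO 7 were higher and 2 lower, shares close to the 42.8% and 13.4% of all genes, with a median of 0.38 against 0.25. Ehhadh, the bifunctional enzyme gene, was at 25.4 ± 1.55 FPKM in DHO, 10.8 ± 4.4 in HO and 21.2 ± 1.76 in WT, and fell by 0.98 on the log2 scale in HO (SE 0.18, adjusted p = 0.000483). The transporter gene Abcd3 (1.31, adjusted p = 0.000324) and Hsd17b4 (1.16, adjusted p = 3.99e-05) rose in DHO against HO. Pex11a, which acts in peroxisome division, and the branched-chain oxidase gene Acox2 were the 2 higher in HO, by 0.92 (SE 0.17, adjusted p = 0.000514) and 0.93 (SE 0.24, adjusted p = 0.00423), and Acox2 was named after its values were seen. Ech1 (-0.51) and Decr2 (-0.55) were lower in HO as deposited and not after that scaling (-0.19, adjusted p = 0.0862, and -0.25, adjusted p = 0.0918).

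Genes of ketone body metabolism were mostly lower in HO in FPKM as deposited. Of 7 tested, 1 was higher and 5 were lower in HO against WT, against 12.4% and 42.9% of all genes. The median change was -0.5 against -0.25 for all genes. In DHO against HO 4 were higher and 1 lower, against 42.8% and 13.4% of all genes, with a median of 0.49 against 0.25. After median-of-ratios scaling 2 were higher and 2 lower in HO against WT, against 24.7% and 23.3% of all genes. Bdh1, which interconverts acetoacetate and hydroxybutyrate, was at 31.1 ± 2.06 FPKM in DHO, 13.8 ± 4.64 in HO and 32.5 ± 2.47 in WT, and fell by 1.23 on the log2 scale in HO (SE 0.17, adjusted p = 3.89e-05). Oxct1, the enzyme gene of ketone use, fell by 0.78 (adjusted p = 0.00488), and was at 0.49 in DHO against HO (adjusted p = 0.0515). It was at 91.6, 103, 50.8, 49.5 and 109 FPKM in DHO libraries 1 to 5, with DHO 3 and DHO 4 within the HO range of 43.2 to 64.1, and without HO 1, DHO 3 and DHO 4 it was called higher in DHO (0.9, adjusted p = 0.000264). Acat1 (-0.59, adjusted p = 0.0157) and the monocarboxylate transporter gene Slc16a1 (-0.44, adjusted p = 0.00328) were called lower in HO, but not with median-of-ratios scaling (-0.29 and -0.13), and Acat1 was not without HO 2, HO 4 and DHO 1 (-0.39, adjusted p = 0.129).

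Pdk4 (chromosome 6, 5483351 to 5496278) showed the largest change of the 8 genes in both comparisons that involve HO. It was at 0.993, 1.46, 1.55, 1.41 and 2.33 FPKM in DHO libraries 1 to 5, at 16.7, 31.2, 7.46, 22.6 and 8.6 FPKM in HO libraries and at 0.468, 0.329, 1.52, 1.63 and 1.46 FPKM in WT libraries. These are 1045 to 4231 recovered reads in HO libraries, against 44 to 225 in WT libraries. The lowest HO library was above the highest library of both other groups. The HO mean was 16.0-fold the WT mean. The change of log2(FPKM + 1) was 3.01 in HO against WT (SE 0.33, adjusted p = 6.86e-06) and -2.68 in DHO against HO (SE 0.33, adjusted p = 1.59e-05). Because WT and DHO libraries lie at 0.329 to 2.33 FPKM, near the 1 FPKM added before the log, these log2 sizes are understated. Over all 25 alternatives the change in HO lay between 2.5 and 4.36, and it was called in each.

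Most other genes of this step were lower in HO. Of the 9 other genes of pyruvate dehydrogenase and its control, 7 were lower and none higher in HO against WT. Among all genes 42.9% were lower and 12.4% higher. The median change was -0.68 against -0.25 for all genes. In DHO against HO 7 were higher and none lower, where 42.8% of all genes were higher and 13.4% lower, with a median of 0.71 against 0.25. Pdk1, a related kinase, was at 5.15 ± 0.904 FPKM in DHO, 1.8 ± 0.63 in HO and 5.32 ± 0.656 in WT, with a change of -1.2 in HO against WT (SE 0.14, adjusted p = 1.46e-05). Pdk2 changed by -0.77 (adjusted p = 0.000125), the phosphatase gene Pdp2 by -1.03 (adjusted p = 5.16e-05; -1.57 with 0.1 FPKM added) and Pdhb, a subunit of the enzyme itself, by -0.74 (adjusted p = 1.87e-05). Pdk3 (-0.08, adjusted p = 0.679) and Pdp1 (0.61, adjusted p = 0.0897) were not called, and Pdp1 was higher after median-of-ratios scaling (0.84, adjusted p = 0.0273) and without HO 1 (0.96, adjusted p = 0.000225). Pdk4 over Pdk2 was 0.0381 to 0.0817 in DHO, 0.53 to 2.71 in HO and 0.0156 to 0.0768 in WT libraries, so the level of Pdk4 exceeded that of Pdk2 in some HO libraries and in no other.

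Smooth muscle also expresses Pdk4, and its markers moved between libraries. The summed level of 6 smooth muscle markers was 385 to 1200 FPKM in DHO, 362 to 1630 in HO and 145 to 1040 in WT, and WT 1 and WT 2, with the lowest sums, also held the least Pdk4. Per 1000 FPKM of these markers, a scale chosen after the values were seen, Pdk4 was at 1.68 to 3.25 in DHO, 5.83 to 46.1 in HO and 1.57 to 2.75 in WT. The part of smooth muscle in the change of Pdk4 was not tested.

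Angptl4 (chromosome 17, 33774900 to 33781575) was the least even of the 8. It was at 23.6, 12.9, 9.59, 10.5 and 26.5 FPKM in DHO libraries 1 to 5, at 12.8, 124, 133, 59.4 and 12.2 FPKM in HO libraries and at 38.6, 29.7, 32.2, 29.8 and 46.3 FPKM in WT libraries. HO 2, HO 3 and HO 4 were above all WT libraries, and HO 1 and HO 5 below all of them. The change in HO against WT was 0.33 (SE 0.58, adjusted p = 0.644), and -0.3 (adjusted p = 0.72) without HO 2, HO 4 and DHO 1. In DHO against HO the change was -1.47 (SE 0.58, adjusted p = 0.0426), but groups overlapped and the call was lost in 16 of 25 alternatives, with adjusted p from 0.0072 to 0.258 over all of them. It was lost without any 1 of the 5 WT libraries, of HO 2, HO 3 or HO 4, or of DHO 2, DHO 3 or DHO 4. Of its relatives, Angptl2 and Angptl8 were tested and neither was called in the fit over all libraries, where neither had an unadjusted p under 0.05, nor by limma-voom. Angptl8 was called in DHO against HO in 1 alternative, without HO 1 (0.54, adjusted p = 0.0293). Angptl6 was too low to test.

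Genes of fatty acid uptake and activation were called in both directions. Of 13 tested, 5 were higher and 3 lower in HO against WT, against 12.4% and 42.9% of all genes. The median change was 0.39 against -0.25 for all genes. In DHO against HO 5 were higher and 4 lower, against 42.8% and 13.4% of all genes, with a median of 0.01 against 0.25. Acsm3, a medium-chain acyl-CoA synthetase gene, was at 3.69 ± 2.32 FPKM in DHO, 0.19 ± 0.173 in HO and 3.27 ± 1.37 in WT, and fell by 1.8 on the log2 scale in HO (SE 0.28, adjusted p = 0.00011). With 0.1 FPKM added in place of 1, Acsm3 was at -3.67, Slc27a2 at -1.82 and Gpihbp1 at 1.61. The transporter and synthetase gene Slc27a2 changed by -1.2 (adjusted p = 0.000948), with HO 1 at 3.76 FPKM against 1.07 or less in the other HO libraries. Gpihbp1, which holds lipoprotein lipase on capillary walls, was at 1.33 ± 0.62 FPKM in DHO, 4.29 ± 1.56 in HO and 1.26 ± 0.219 in WT, a change of 1.17 in HO (SE 0.22, adjusted p = 0.000435). The fatty acid receptor gene Cd36 changed by 1.52 (SE 0.45, adjusted p = 0.0102), and by 0.98 (adjusted p = 0.00736) without HO 1, DHO 3 and DHO 4, since it was at 32.8 FPKM in HO 1 and at 2.33 to 6.3 in the other HO libraries. Acsl4 was lower in DHO against HO (-1.3, adjusted p = 0.000309) and Acsl1 higher (0.5, adjusted p = 0.00372), though not after median-of-ratios scaling (0.25, adjusted p = 0.0948) or without HO 2, HO 4 and DHO 1 (0.3, adjusted p = 0.0843). Lpl itself, the enzyme that ANGPTL4 inhibits, was at 0.45 in HO against WT (adjusted p = 0.0811), and was called at 0.66 (adjusted p = 0.00863) after that scaling. Leaving out HO 1, DHO 3 and DHO 4 gave a called change of 0.51 for Lpl (adjusted p = 0.045).

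Other known PPAR target genes were called in both directions. Of 14 listed 9 were tested, and 1 was higher and 2 were lower in HO against WT, where 55.4% of all genes were called, with a median change of 0.22 against -0.25 for all genes. After median-of-ratios scaling 4 were higher and 1 lower, against 24.7% and 23.3% of all genes. In DHO against HO 2 were higher and none lower, against 42.8% and 13.4% of all genes. After that scaling 1 was higher and 3 lower in DHO against HO, against 24.7% and 25.9% of all genes. Creb3l3, a transcription factor gene of lipid metabolism in liver and intestine, was at 120 ± 58.5 FPKM in DHO, 188 ± 95.0 in HO and 51.7 ± 11.3 in WT, with a change of 1.73 in HO (SE 0.34, adjusted p = 0.000625) and of -0.64 in DHO against HO (adjusted p = 0.116), which was -0.84 without DHO 3 (adjusted p = 0.0462), -0.86 without HO 5 (adjusted p = 0.0322) and -0.88 without HO 1, DHO 3 and DHO 4 (adjusted p = 0.00803). Slc25a42, a mitochondrial coenzyme A carrier gene, fell by 0.63 (adjusted p = 0.00256), and was at -1.11 with 0.1 FPKM added in place of 1. The uncoupling protein gene Ucp2 was at -0.39 (adjusted p = 0.0378), a call lost after median-of-ratios scaling (-0.07), without any 1 of HO 2 (-0.23), HO 4, WT 2, WT 3, WT 4 or WT 5 and without HO 2, HO 4 and DHO 1 (-0.12). The lipid droplet gene Hilpda was at 0.35 (adjusted p = 0.134), and at 0.58 (adjusted p = 0.0255) after it. Acot1, which shares sequence with Acot2 and is therefore uncertain, was at 0.46 (adjusted p = 0.0828), and was called without HO 1 (0.57, adjusted p = 0.0363), without WT 4 (0.56, adjusted p = 0.0496) and without HO 1, DHO 3 and DHO 4 (0.57, adjusted p = 0.0478).

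Markers of other cells in the tissue are given beside these results. The 9 enterocyte markers summed to 15700 to 30800 FPKM in DHO, 17900 to 25700 in HO and 13600 to 17000 in WT. Of these, 3 were called higher and 1 lower in HO against WT, against 12.4% and 42.9% of all genes. Vil1, the villin gene of the brush border, was at 0.07 (adjusted p = 0.604). The highest sums were those of DHO 3 (29800), DHO 4 (30800) and HO 1 (25700), and DHO 1, DHO 2 and DHO 5 lay at 15700 to 19000. Much of the sum was Apoa1, at 8360 FPKM in DHO, 10100 in HO and 5420 in WT. Fabp2 was another large part, at 8250, 4230 and 3870 FPKM in the same groups. Lgals4 was at -0.32 in HO against WT (adjusted p = 0.0171). The part of enterocyte number in the lower levels of Ppara, Cpt1a, Cpt2 and Acadm was not tested. The 9 adipocyte markers summed to 23.3 to 36.6 FPKM in DHO, 36.6 to 73.0 in HO and 14.9 to 35.0 in WT, with 3 tested and 2 called higher in HO. Most of that sum was Cidec, at 17.9 to 66.0 FPKM in HO libraries. The defining gene Adipoq was at 0.732, 0.0, 2.56, 0.041 and 1.93 FPKM in HO 1 to 5, and its part in the changes was not tested.

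Beside the counts of markers called here, 12.4% of all genes were called higher and 42.9% lower in HO against WT. Endothelial markers summed to 8.77 to 17.7 FPKM in DHO, 16.3 to 45.0 in HO and 11.7 to 21.3 in WT, and 2 of 5 were called higher in HO. Macrophage markers summed to 38.4 to 120 FPKM in DHO, 74.8 to 270 in HO and 71.3 to 136 in WT, with 1 of 5 called higher, and neutrophil markers to 0.0877 to 1.4 in DHO, 2.25 to 28.6 in HO and 0.364 to 0.941 in WT, with 2 of the 2 tested called higher. The part of these cells in the changes of Gpihbp1, Cd36, Angptl4 and Acsl4 was not tested. Of the 6 smooth muscle markers 4 were called higher in HO. Of 3 skeletal muscle markers tested 1 was lower, and the list summed to 29.7 to 46.8 FPKM in DHO, 5.72 to 19.2 in HO and 29.1 to 93.5 in WT. Nearly all of the difference was Acta1, at 28.1 FPKM in DHO, 4.51 in HO and 51.9 in WT, while Ckm averaged 5.77, 6.93 and 4.16 FPKM in the same groups. Hepatocyte markers summed to 2.59 FPKM or less in every library. B cell markers, with none of 2 tested called, reached 54.4 FPKM in DHO, 119 in HO and 8.37 in WT. Position markers summed to at most 488 FPKM in DHO, 2830 in HO and 14.3 in WT for the proximal list, and to at least 7550 in DHO, 8.5 in HO and 7270 in WT for the distal list.

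No difference between DHO and WT was called for any of the 8 genes. In DHO against WT none of the 8 was called by limma-trend, where 0.238% of all genes were (0.0794% higher, 0.159% lower), none had an unadjusted p under 0.05, and limma-voom called none with either set of library factors. In a fit of DHO and WT libraries only, none was called and 2, Angptl4 and Hadha, had an unadjusted p under 0.05. Changes ranged from -1.14 for Angptl4 to 0.33 for Pdk4, and the other 6 lay between -0.11 for Cpt2 and 0.17 for Hadha. A missed threshold does not show that the groups are alike, and the SE of these differences reached 0.58 for Angptl4. Angptl4 was the 1 gene of the 8 whose groups did not overlap, at 9.59 to 26.5 FPKM in DHO libraries and 29.7 to 46.3 in WT libraries, as for 4.40% of all genes (2.44% higher, 1.96% lower). Its adjusted p was 0.873 in the fit that shares the spread of the HO libraries and 0.072 in a fit of DHO and WT libraries only. Over the 91 genes of all these lists that were tested, the 8 included, none was called in DHO against WT, and 7 had an unadjusted p under 0.05. In the fit of those groups only, 21 had an unadjusted p under 0.05 and 1, Hsd17b4, was called. Hsd17b4 was at 47.7 ± 4.68 FPKM in DHO and 32.7 ± 4.2 in WT.

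By level, the order in WT was Hadha (83.1 FPKM), Acadl (71.2), Acadm (60.7), Cpt2 (46.1), Angptl4 (35.3), Cpt1a (23.8), Ppara (3.19) and Pdk4 (1.08). Neighbours from Hadha to Acadm overlapped in range, as did Cpt2 and Angptl4, and the other neighbours did not. In HO Acadl led at 156 FPKM, followed by Angptl4 (68.3) and Hadha (64.9), Pdk4 (17.3) stood above Cpt1a (11.6), and all neighbours overlapped except Cpt1a and Ppara (0.746). In DHO the order was that of WT except that Cpt1a (24.8) stood above Angptl4 (16.6), a pair that overlapped.

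The genes with the pattern most like each of the 8 were found by the root-mean-square difference of log2(FPKM + 1) over the 15 libraries, each gene centred on its own mean. For Acadm these were Yipf1 (0.048) and Mgat4a (0.07), for Hadha 1 of them was Hadhb (0.081), and for Cpt2 Ppif (0.142) and Tbrg4 (0.15). For Ppara they were Cracdl (0.152) and Sh3rf2 (0.165), for Cpt1a Slc25a17 (0.159) and Elapor1 (0.167), and for Acadl Ttc39b and Ripk3 (both 0.173). Pdk4 had no such close match, with Thbs1 at 0.403 and Gbp3 at 0.435, and Angptl4 was the most apart, with Ildr1 at 0.535 and Sprr1a at 0.608. Of these genes Thbs1 was at 3.47 FPKM in DHO, 36.0 in HO and 3.98 in WT, and Gbp3 at 4.37, 34.5 and 5.16 FPKM in the same groups. The 15 libraries share 3 groups, so genes that follow the groups come out as alike.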

How the data were processed

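RNA was measured by sequencing in 15 libraries of whole mouse ileum, 5 per genotype, grouped by the genotype label. The deposited table gives FPKM, a unit read from the values since no header names it; fastp, HISAT2, HTSeq and mm10 are named per the submitters' processing notes, without versions or settings. Whole reads were recovered from the FPKM steps for 100% of the 24836 genes above 0, within 0.02 of a read, and gave 38724618 to 40589889 reads per library. A gene whose reads share a divisor is read too low. The filter asked for 1 FPKM or more in 5 or more libraries. Log2(FPKM + 1) was fitted with limma-trend and robust moderation (limma 3.58.1, R 4.3.3) over all 15 libraries, two-sided. The 25 alternatives were a pseudocount of 0.1, no filter or one at 0.5 FPKM, quantile and median-of-ratios scaling, limma-voom on recovered reads with either set of library sizes, a fit of 2 groups only, each library left out in turn, and both sets of 3 libraries left out. The labels give no batch or pairing. The script was tested on simulated data. The 8 genes, the lists and the naming rule were chosen with earlier results of these data known. The rule named the 8 genes, up to 4 called genes with the smallest p and up to 2 not called per list and comparison, and the 2 most alike patterns; Acox2, Cpt1b and the genes of marker lists were named outside the rule, after their values were seen. Coordinates and promoters come from RefSeq on GRCm38.p6, the assembly behind mm10. Cyp4a14, Fgf21 and Myh4 were not analysed here, and the values of some genes of the lists are not reported here.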

Additional observations from a re-analysis of the deposited data

Results flagged for a closer look

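Among 70 named genes in 3 groups of 5 libraries each, 210 groups were examined for a library far from the other 4, as the gap over the range of log2(FPKM + 1), and 9 passed the critical value of 0.71. Chance flags about 1 group in 20. None concerned the 8 genes described.

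HO 1 stood apart for 3 genes: Scp2, a peroxisomal thiolase gene, at 199 FPKM against 103 to 109 in the other HO libraries (gap 0.915), Pex11a at 30.0 against 21.4 to 22.4 (0.861), and Slc27a2 at 3.76 against 0.531 to 1.07 (0.734). HO 5 was highest for Slc27a4, at 352 FPKM against 286 to 303 (0.723). In DHO, Hnf4a was at 273 FPKM in DHO 2 against 240 to 245 (0.854), and Bdh2 at 0.195 FPKM in DHO 1 against 0.766 to 1.04 (0.734). Cfd, an adipocyte marker, was at 4.72 FPKM in DHO 5 against 0.0806 or less in the other DHO libraries (0.956) and at 6.4 in WT 3 against 0.517 or less in the other WT libraries (0.792). Acads was at 53.5 FPKM in WT 2 against 59.8 to 62.4 (0.72).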

How the results depend on the processing

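In HO against WT 6273 genes were called, and 5569 to 6622 with 1 library left out; in DHO against HO these were 6359 and 5746 to 6730. In DHO against WT 27 genes were called, 7 to 80 with 1 library left out (80 without HO 1), 186 in a fit of these groups only, 51 without HO 1, DHO 3 and DHO 4, 43 without HO 2, HO 4 and DHO 1, 13 with median-of-ratios scaling and 11 when those factors entered limma-voom. With 1 library left out, the count of the 8 genes called was 7 in HO against WT, 7 to 8 in DHO against HO and 0 in DHO against WT. Over all 25 alternatives Ppara, Cpt1a, Cpt2, Acadm, Acadl and Pdk4 kept their direction and their call in both comparisons that involve HO, and the exceptions, Hadha and Angptl4, are given above. Median-of-ratios scaling changed the share of lower calls among all genes from 77.6% to 48.5% in HO against WT and from 23.8% to 51.2% in DHO against HO. Hnf4a, not called as deposited in HO against WT (-0.06), was higher after median-of-ratios scaling (0.26, adjusted p = 0.0192) and in limma-voom with those factors (0.26, adjusted p = 0.0248); the cause was not tested. No paired analysis was possible because the labels give the groups no shared replicate numbers.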
